A study of Mus musculus with 24 samples.

Results

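Expression of 10 genes of extracellular matrix turnover was described in mouse muscle: 6 matrix metalloproteinases (Mmp2, Mmp3, Mmp8, Mmp12, Mmp14, Mmp19), 3 tissue inhibitors of metalloproteinases (Timp1, Timp2, Timp3) and the related membrane protease Adam8. They were chosen by name, with earlier results of these data known, out of the 54532 genes counted, and all 10 were found. RNA of the left gastrocnemius muscle of wild-type C57/BL6 mice gave 24 sequencing libraries, 1 per sample; 4 samples make up each of 6 groups, which are 3 conditions in females and in males. Controls were sedentary and received 2 injections of 20 µl saline at pH 7.2 ± 0.1 into the muscle, 5 days apart. Sedentary pain mice received pH 5.0 ± 0.1 injections of the same volume and spacing, with 6 min of electrically evoked contraction of the same muscle just before the later one. Active pain mice had running wheels for 8 weeks and then the same acid and contraction procedure. The time label reads 24 h throughout, and no age is given. The pain groups differ in running alone. No group ran without the pain procedure, so running by itself was not measured, and no group had acid or contraction alone, so the effects of acid and contraction cannot be told apart. The labels do not say that each sample is a separate animal, and p-values set group differences against the spread between these samples.

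Matrix metalloproteinases are zinc proteases that cut collagens, proteoglycans and other matrix proteins, as well as cytokines and receptors at the cell surface. Most are secreted as inactive proenzymes, and the Timps bind the active site of the mature enzymes and block it. In muscle, fibroblasts make much of the resting matrix and its proteases, while neutrophils and macrophages that enter after injury bring or induce further members. Adam8 belongs to the disintegrin metalloproteinases and is known from leukocytes, where it sheds adhesion molecules. In bulk tissue RNA, fewer or more cells of a type and less or more RNA per cell cannot be told apart.

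In GRCm38 with the GENCODE M21 annotation, Mmp3 (chr9:7445822-7455975), Mmp8 (chr9:7558456-7568485) and Mmp12 (chr9:7344381-7369499) lie on the plus strand of the same stretch of chromosome 9. Mmp2 lies at chr8:92827291-92853420, Mmp14 at chr14:54431612-54445364 and Mmp19 at chr10:128790910-128800824, all on the plus strand. Timp1 is on chromosome X at chrX:20870166-20874735 (plus strand), Timp2 at chr11:118301069-118355740 (minus strand) and Timp3 at chr10:86300372-86349506 (plus strand). Adam8 lies at chr7:139978932-139992562 on the minus strand. All 10 are protein-coding genes. Timp1 lies within Syn1 on the opposite strand without sharing exon bases. The exons of Mmp19 share 789 bp with Tmem198b on the opposite strand, which reached 217 counts in a library. Mmp19 also shares 212 bp of exon with the antisense gene Gm47093 (at most 1 count). The exons of Timp3 share 1733 bp with Syn3 (at most 11 counts), those of Adam8 share 46 bp with Gm16201 (at most 18 counts) and those of Mmp12 share 157 bp with Mmp1b (0 counts in every library), all on the opposite strand. The library kit marks strand, but whether counting used it is not given in the sources used here, so reads of Mmp19 and Tmem198b may not be separated.

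The sequences below are the 150 bases before the annotated start of the 5 genes whose level changed in female sedentary pain mice, shown so that the starts of these genes can be compared. They were taken from RefSeq on GRCm38.p6, where 8 of the 10 genes had an entry, and run from 5′ to 3′ on the gene's own strand. Capitals mark the AP-1 core motif, TGAGTCA, searched on both strands. AP-1 is the Fos and Jun dimer, a textbook regulator of Mmp3 and Timp1.
Mmp3, chr9:7445672-7445821, plus strand: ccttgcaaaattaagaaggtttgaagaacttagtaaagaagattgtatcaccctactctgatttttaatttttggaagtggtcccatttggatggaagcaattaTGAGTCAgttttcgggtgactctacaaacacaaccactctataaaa
Mmp14, chr14:54431448-54431597, plus strand: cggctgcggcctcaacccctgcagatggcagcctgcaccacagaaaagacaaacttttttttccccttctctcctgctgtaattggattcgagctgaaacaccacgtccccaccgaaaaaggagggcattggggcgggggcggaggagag
Timp1, chrX:20870016-20870165, plus strand: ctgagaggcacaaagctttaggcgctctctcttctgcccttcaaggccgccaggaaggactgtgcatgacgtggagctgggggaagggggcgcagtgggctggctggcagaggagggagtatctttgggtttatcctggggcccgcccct
Timp3, chr10:86300262-86300411, plus strand: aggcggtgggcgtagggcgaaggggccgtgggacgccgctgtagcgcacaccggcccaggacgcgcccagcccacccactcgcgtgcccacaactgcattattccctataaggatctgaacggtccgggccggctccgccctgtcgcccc
Adam8, chr7:139992563-139992712, minus strand: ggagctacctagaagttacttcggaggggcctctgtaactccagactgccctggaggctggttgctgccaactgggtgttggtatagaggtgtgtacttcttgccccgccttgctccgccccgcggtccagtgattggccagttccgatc

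Of these 5, the Mmp3 window holds the AP-1 core, with its first base 46 bases before the start. It was also found 44 bases before the later of the 2 annotated starts of Mmp12, which did not pass the threshold. The core was found in 5.2% of 32851 RefSeq windows reaching from 250 bases before to 50 after a start. A variant searched on both strands, TGAGTAA, was found in 2.68% of these windows. Timp1 has this variant after its start, beginning at base 27 counted from the start, within the 21 bases gggtggaTGAGTAAtgcgtcc. Neither motif was found in the windows of Mmp14, Timp3 or Adam8. These matches describe letters and are no measure of binding.

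The libraries held 17612139 to 34039699 counts. Several libraries stood apart from the rest of their groups in the levels of leukocyte genes. The summed level of 10 neutrophil markers was 260 CPM (read counts scaled to library size) in female sedentary pain replicate 2, 299 CPM in male sedentary pain replicate 1, 114 CPM in female active pain replicate 3, 76.5 CPM in female active pain replicate 2 and 78.3 CPM in male active pain replicate 2, against at most 9.16 CPM in the 8 controls. The other female sedentary pain libraries, replicates 1, 3 and 4, were at 21.1, 41 and 57.3 CPM, also above all controls. The summed level of 10 macrophage and monocyte markers was 3509.6 and 4725.9 CPM in female sedentary pain replicates 3 and 4, against at most 190 CPM in the controls and at most 796 CPM in the other pain libraries. Myofibre markers summed to 111413.6 to 255027.5 CPM in the 24 libraries, so the labelled tissue's defining genes were present in each, and fibroblast markers to 1195 to 2785.7 CPM. The lowest myofibre sums, 121698.1 and 111413.6 CPM, were those of female sedentary pain replicates 3 and 4, the libraries with the high macrophage marker sums. Among the neutrophil markers Mpo and Ly6g were at 0 in all 4 male controls, and reached at most 21 and 11 counts in any library. The part of cell content in the changes described here was not tested.

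Per length, Timp2, Mmp2 and Timp3 had the highest levels in controls. In female controls, Timp2, which besides blocking proteases helps Mmp14 to activate proMmp2, had 26.3 ± 2.46 CPM per kb of exon (mean ± SD, n = 4 here and below). It was followed by the gelatinase Mmp2 with 16 ± 0.829, the matrix-bound inhibitor Timp3 with 10.6 ± 1.7 and the membrane-bound collagenase Mmp14 with 2.88 ± 0.788 CPM per kb. The stromelysin Mmp3 (1.75 ± 1.12), Mmp19 (1.36 ± 0.977) and Timp1 (0.906 ± 0.359) followed; in this order from Mmp14 to Timp1, the ranges of mean ± SD of neighbours overlapped. Adam8 had 0.164 ± 0.0844, the neutrophil collagenase Mmp8 0.0234 ± 0.0358 and the macrophage elastase Mmp12 0.0178 ± 0.0116 CPM per kb, the last pair being indistinguishable. In female sedentary pain mice the mean of Timp1 was 68.4 ± 49.1 CPM per kb, and that of Timp2 28.5 ± 8.19. Timp1 was above Timp2 per length in replicates 2 and 4 and slightly below it in replicates 1 (21 against 21.5) and 3 (34.4 against 36.8), while Timp3 had 6.61 ± 1.9.

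**Figure D1:**
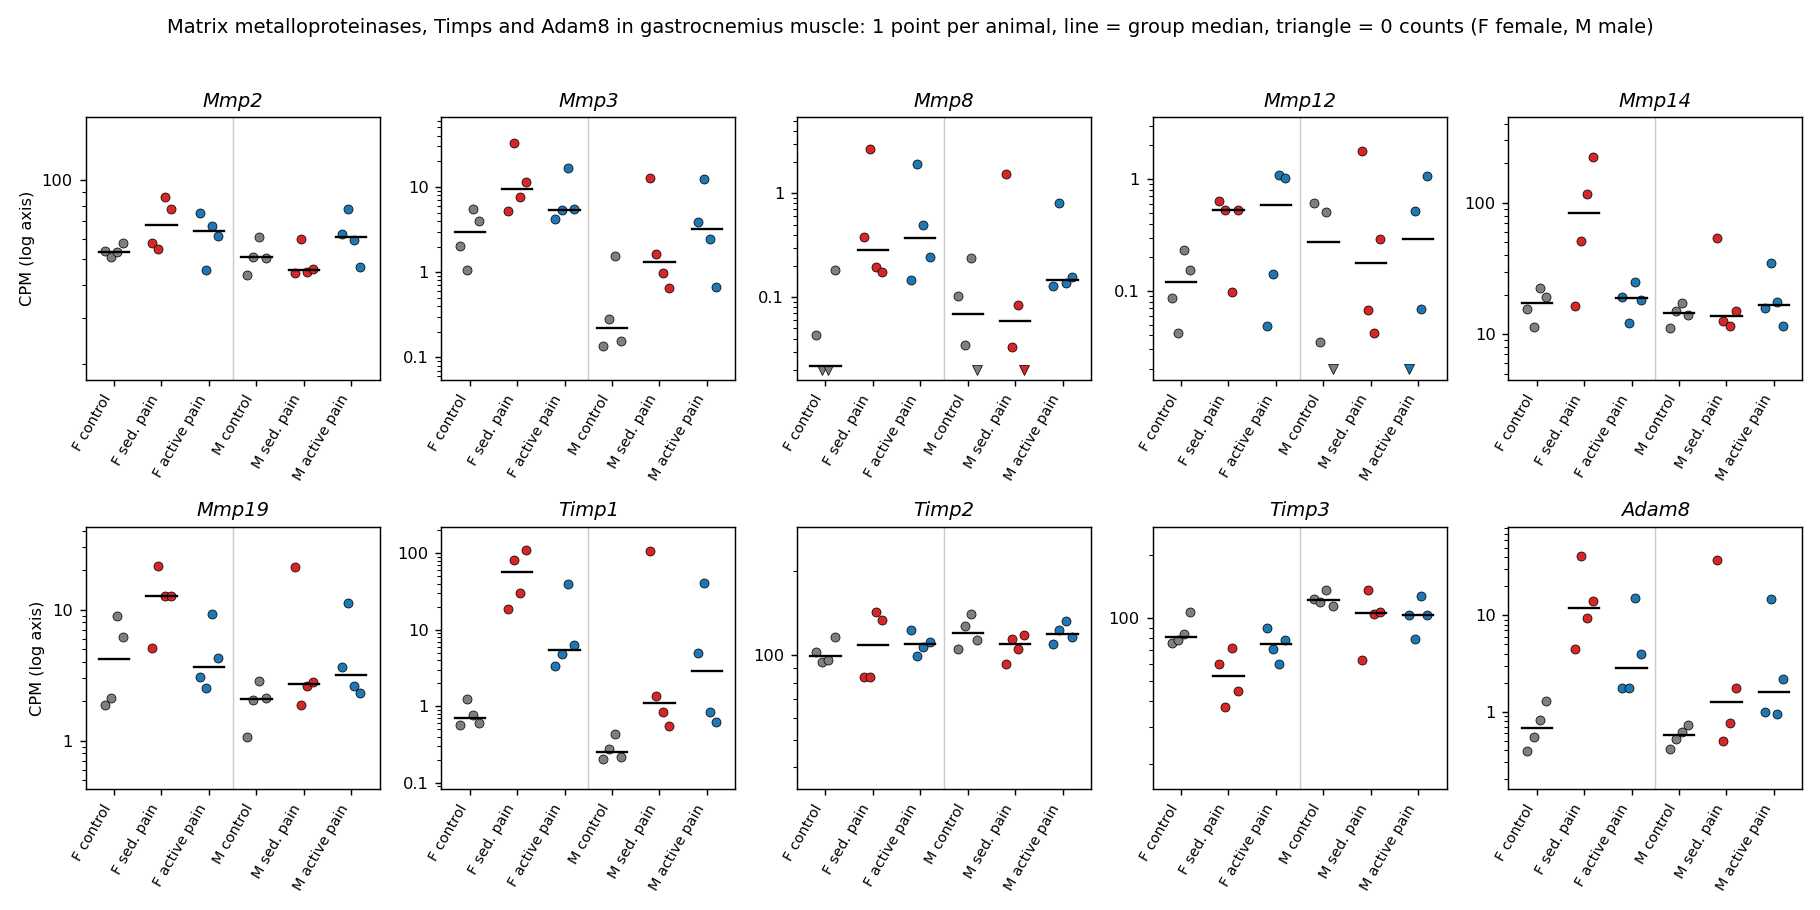
Level of each of the 10 genes in every library, in CPM on a log axis, by group; each point is 1 sample, the line is the group median and triangles are libraries with 0 counts. Timp1 and Adam8 of female sedentary pain mice lie above all female controls, Timp3 lies below them, and in males single points stand far above the rest. The word animal in the figure's heading stands for a sample.

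In female mice with pain and no running, Timp1, Adam8, Mmp14 and Mmp3 rose above the controls and Timp3 fell. These were 5 of the 10 genes, 4 higher and 1 lower, all 10 having passed the filter on low counts. Over all genes tested in that comparison 33.5% changed, 19.6% higher and 13.9% lower, at a Benjamini-Hochberg adjusted p under 0.05 in edgeR's quasi-likelihood test. The groups did not overlap for 3 genes (Timp1, Adam8 and Timp3), against 26.3% of all genes tested. The median log2 change over the 10 genes was 1.91, against -0.02 over all genes tested. Because the 10 genes were chosen with earlier results of these data known, these shares and medians are a description. Among 8 other tested genes of the family (matrix metalloproteinases and Timp4), 2 rose, 3 fell and the median was -0.58.

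Among the enzymes, Mmp14 of female controls was at 15.6, 11.4, 22.4 and 19.2 CPM in replicates 1 to 4, and of female sedentary pain mice at 16.3, 51.7, 117 and 224 CPM. Replicates 3 and 4, the libraries rich in macrophage markers, were the highest, and replicate 1 lay within the control range. The log2 fold change was 2.55 ± 0.61 (SE, adjusted p = 0.0108 in edgeR). Without sedentary pain replicate 4 it was 1.85 ± 0.5 (adjusted p = 0.0308). Within replicates 1 and 2, whose files carry the lower library numbers, the log2 ratio of mean CPM was 1.33, and within replicates 3 and 4 it was 3.04.

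Mmp3, which cleaves proteoglycans and fibronectin and can activate other proMMPs, was at 2.04, 1.05, 5.58 and 3.94 CPM in female controls. Its levels in female sedentary pain mice were 5.25, 32.7, 7.55 and 11.3 CPM. Replicate 2, with the high neutrophil markers, was the highest, and replicate 1 lay within the control range. The log2 fold change was 2.13 ± 0.68 (adjusted p = 0.0332 in edgeR). The call was lost in 9 of 20 alternative analyses, and without sedentary pain replicate 2 the log2 change was 1.34 ± 0.59 (adjusted p = 0.109). It was also lost without sedentary pain replicate 4 (adjusted p = 0.0574) and without control replicate 1 (0.0787), 2 (0.0803) or 4 (0.0612). The log2 ratio was 3.62 in replicates 1 and 2 and 0.98 in replicates 3 and 4.

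The other enzymes did not pass the threshold. Mmp19, a secreted metalloproteinase of broad substrate range, was at 1.86, 2.1, 9.02 and 6.23 CPM in female controls and 5.07, 21.4, 12.6 and 12.7 CPM in female sedentary pain mice, a log2 difference of 1.4 ± 0.59 (adjusted p = 0.0816 in edgeR). All sedentary pain libraries but replicate 1 lay above every control. Mmp8 had 1, 0, 0 and 6 counts in the controls and 10, 46, 6 and 5 counts with sedentary pain, a log2 difference of 3.53 ± 1.3 (adjusted p = 0.0546 in edgeR). Most of its counts came from replicate 2. Mmp12 had 2, 1, 6 and 5 counts against 17, 9, 3 and 15 (1.69 ± 0.89, adjusted p = 0.148 in edgeR), and the groups overlapped. Mmp2 lay between 51.2 and 57.8 CPM in the controls and at 57.9, 55, 86.7 and 77.7 CPM with sedentary pain (0.34 ± 0.17, adjusted p = 0.133 in edgeR). Its highest values were again those of replicates 3 and 4, the libraries rich in macrophage markers.

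Of the inhibitors, Timp1, which is known for its rise in inflamed and injured tissue, was at 0.563, 1.26, 0.781 and 0.611 CPM in female controls and at 18.7, 82.1, 30.6 and 111 CPM in female sedentary pain mice. All 4 sedentary pain libraries lay above all 4 controls. The log2 fold change was 6.22 ± 0.97 (adjusted p = 0.0026 in edgeR), and it passed the threshold in all 20 alternative analyses, at log2 changes of 5.75 to 6.54. Within replicates 1 and 2 the log2 ratio was 5.79 and within replicates 3 and 4 it was 6.67.

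Timp3, which also blocks several ADAM proteases, moved the opposite way. It was at 76.1, 78.9, 84 and 107 CPM in female controls and 60.4, 37.6, 72.2 and 44.9 CPM in female sedentary pain mice. All 4 sedentary pain libraries lay below all 4 controls. The log2 fold change was -0.7 ± 0.2 (adjusted p = 0.0248 in edgeR), and the log2 ratio was -0.66 in replicates 1 and 2 and -0.7 in replicates 3 and 4. The call was lost in 4 of 20 alternative analyses, among them those without sedentary pain replicate 2 (adjusted p = 0.0513), sedentary pain replicate 4 (0.0779) or control replicate 4 (0.067). Timp2 was at 95 to 116 CPM in the controls and 83.5 to 143 CPM with sedentary pain (0.1 ± 0.18, adjusted p = 0.679 in edgeR), with sedentary pain replicates 3 and 4 above all controls and replicates 1 and 2 below them.

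Adam8 was at 0.39, 0.547, 0.82 and 1.28 CPM in female controls and 4.42, 41.3, 9.39 and 14.2 CPM in female sedentary pain mice. All sedentary pain libraries were above all controls, and replicate 2, with the high neutrophil markers, was the highest. The log2 fold change was 4.45 ± 0.9 (adjusted p = 0.00555 in edgeR) and passed the threshold in all 20 alternative analyses. Without sedentary pain replicate 2 it was 3.59 ± 0.8 (adjusted p = 0.0108). The log2 ratio was 5.61 in replicates 1 and 2 and 3.49 in replicates 3 and 4.

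**Figure D2:**
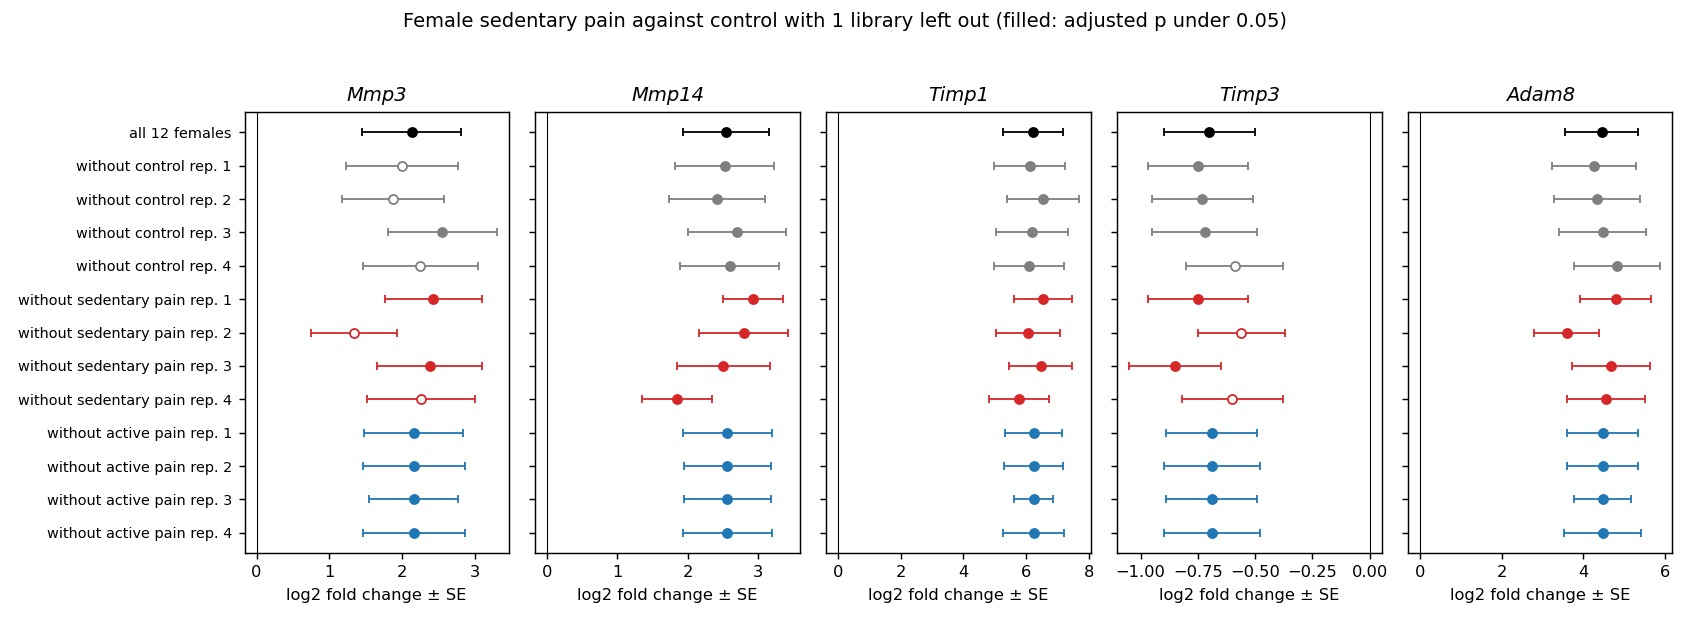
Log2 fold change ± SE of the 5 genes that changed in female sedentary pain mice against controls, with all 12 female libraries (black) and with each left out in turn (rows, coloured by the group of the library left out); filled points have an adjusted p under 0.05. Timp1, Adam8 and Mmp14 stay filled in every row, and open points occur for Mmp3 and Timp3.

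In female mice that had run before the pain procedure, Timp1 and Adam8 lay above every control, but the spread between libraries was wide. No gene of the 10 passed the threshold against controls in edgeR (0% of all genes tested did, with 1020 at an unadjusted p under 0.05 and 133 called by DESeq2). Of the 10, 4 had an unadjusted p under 0.05, and DESeq2 called 2, Timp1 and Adam8. Timp1 was at 3.38, 4.77, 39.3 and 6.29 CPM (log2 difference from controls 4.06 ± 0.9, adjusted p = 0.565 in edgeR). Adam8 was at 1.76, 1.76, 15.2 and 3.95 CPM (2.87 ± 0.86, adjusted p = 0.565 in edgeR). For these 2 of the 10 genes the groups did not overlap, against 5.44% of all genes tested, and replicate 3 was the highest. With DESeq2 the adjusted p was 9.29e-05 for Timp1 and 0.0207 for Adam8.

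The enzymes of female active pain mice overlapped with the controls. Mmp14 was at 19.3, 12.2, 25 and 18.2 CPM (log2 difference 0.12 ± 0.58, adjusted p = 0.958 in edgeR), close to the control values given above. Mmp19 was at 3.04, 2.54, 9.32 and 4.25 CPM (-0.01 ± 0.58, adjusted p = 0.997 in edgeR). Mmp3 was at 4.26, 5.37, 16.6 and 5.47 CPM (1.32 ± 0.67, adjusted p = 0.763 in edgeR), with replicate 3 the highest. Mmp8 had 3, 54, 13 and 8 counts (3.38 ± 1.3, adjusted p = 0.625 in edgeR) and Mmp12 had 1, 4, 28 and 34 (2.12 ± 0.87, adjusted p = 0.65), so that their highest libraries were not the same. Mmp2 was at 74.9, 45.5, 67.2 and 61.3 CPM (0.2 ± 0.17, adjusted p = 0.837). Timp3 was at 89.4, 70.9, 60.4 and 78.7 CPM (-0.21 ± 0.2, adjusted p = 0.842 in edgeR) and Timp2 at 99.8 to 123 CPM, both overlapping with the controls.

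Between the 2 pain groups of females, Mmp14 was the gene that passed the threshold. It was lower in active than in sedentary pain mice by a log2 fold change of -2.43 ± 0.6 (adjusted p = 0.033 in edgeR). Over all genes tested 11.9% changed, and 9.41% were lower. The CPM of the 2 groups overlapped, because sedentary pain replicate 1 (16.3 CPM) lay inside the active pain range, and no gene of the 10 had groups apart (11.8% of all genes tested did). The call was lost in 7 of 20 alternative analyses. Without active pain replicate 1, 2 or 4 its adjusted p was 0.0845, 0.101 or 0.0889, and without sedentary pain replicate 3 or 4 it was 0.0651 or 0.0962, the log2 change without sedentary pain replicate 4 being -1.72 ± 0.5. Leaving out any of these libraries also brought the calls over all genes from 1730 to at most 3. Timp1 (-2.16 ± 0.77, adjusted p = 0.0827 in edgeR), Adam8 (-1.58 ± 0.78, adjusted p = 0.178), Mmp19 (-1.41 ± 0.59, adjusted p = 0.123) and Timp3 (0.49 ± 0.2, adjusted p = 0.121) did not pass. The comparisons of these 3 female groups share libraries, so their values are not independent of each other.

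**Figure D3:**
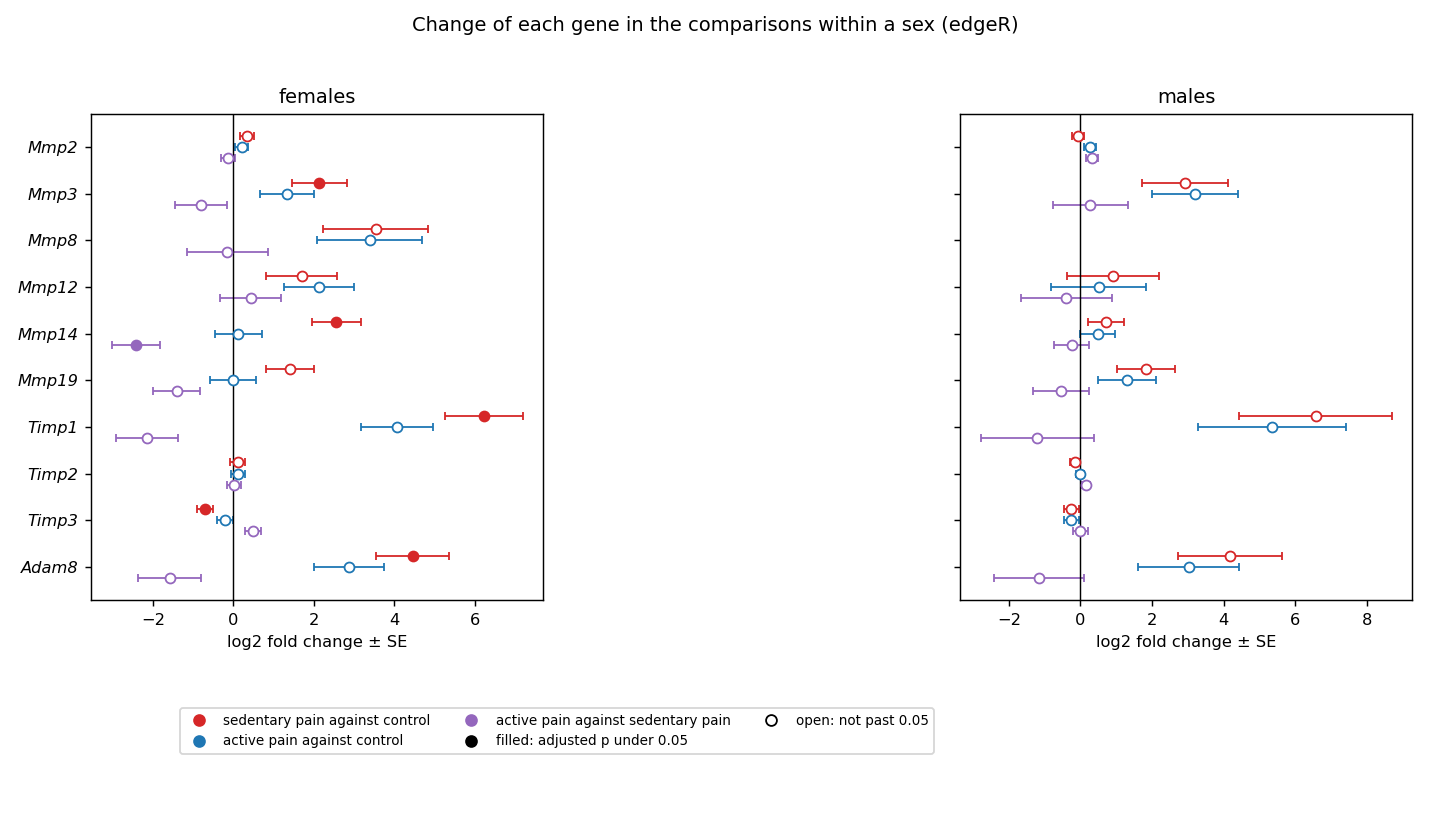
Log2 fold change ± SE of each gene (rows) in the 3 comparisons within females (left) and within males (right) in edgeR; filled points have an adjusted p under 0.05. Filled points occur in females, 5 for sedentary pain against control and 1 for active against sedentary pain, and the male intervals of Timp1, Adam8 and Mmp3 are wide.

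In males no gene of the 10 passed the threshold in any of the 3 comparisons. The test covered 9 of them, since Mmp8 did not pass the filter, and 0% of all genes tested passed the threshold in each. Unadjusted p-values under 0.05 were found for 4 genes in sedentary pain against control, 2 in active pain against control and 0 in active against sedentary pain, and DESeq2 called 0 of the 10 in each. Over all genes these unadjusted counts were 1273, 1045 and 121, and DESeq2 called 280, 123 and 0. High values came mostly from 1 library in each pain group. Timp1 was at 0.205, 0.28, 0.441 and 0.22 CPM in male controls, at 107, 1.37, 0.844 and 0.546 CPM with sedentary pain, and at 4.99, 41.5, 0.855 and 0.633 CPM with active pain. Every pain library of either group lay above every control, and sedentary pain replicate 1 was 77.7 times the next highest library of its group.

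The log2 change of Timp1 in male sedentary pain was 6.57 ± 2.13 (adjusted p = 0.353 in edgeR), and 1.7 ± 1.5 without replicate 1. In male active pain it was 5.36 ± 2.07 (adjusted p = 0.615), and 2.89 ± 1.92 without replicate 2. The share of all genes tested whose groups did not overlap was 8.07% for sedentary pain and 10.4% for active pain against control. Of the 10 genes, Timp1 had groups apart in the former, and Timp1 and Adam8 in the latter. Between the male pain groups none did, against 0.653% of all genes tested.

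Adam8 showed the same layout, at 0.409, 0.524, 0.61 and 0.723 CPM in male controls, 37.9, 0.502, 0.76 and 1.78 CPM with sedentary pain and 0.99, 14.6, 0.957 and 2.18 CPM with active pain. Its log2 change in sedentary pain was 4.18 ± 1.46 (adjusted p = 0.409 in edgeR), and 0.85 ± 0.97 without replicate 1. In active pain it was 3.02 ± 1.42 (adjusted p = 0.634), and 1.28 ± 1.35 without replicate 2. Mmp3 was at 0.136, 0.28, 1.53 and 0.157 CPM in controls, 12.7, 1.64, 0.971 and 0.655 CPM with sedentary pain and 3.92, 12.5, 2.46 and 0.673 CPM with active pain. Its log2 changes were 2.93 ± 1.2 (adjusted p = 0.509 in edgeR) and 3.21 ± 1.2 (adjusted p = 0.605), and control replicate 3 kept both pairs of groups overlapping.

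Mmp14 of males was at 11.2, 15, 17.4 and 13.9 CPM in controls, 54.2, 12.5, 11.5 and 15.1 CPM with sedentary pain and 15.9, 35, 17.7 and 11.6 CPM with active pain. Again sedentary pain replicate 1 and active pain replicate 2 stood above the rest. The log2 change in sedentary pain was 0.72 ± 0.5 (adjusted p = 0.637 in edgeR), and -0.12 ± 0.31 without replicate 1. Mmp19 was at 1.06 to 2.85 CPM in male controls, and at 21.3 CPM in sedentary pain replicate 1 and 11.2 CPM in active pain replicate 2, the other 6 pain libraries lying between 1.87 and 3.66 CPM. Mmp8 had 38 counts in sedentary pain replicate 1 and 20 in active pain replicate 2, and 0 to 7 in the other 10 male libraries. Mmp12 had 44 counts in sedentary pain replicate 1, but also 18 and 15 in control replicates 1 and 3 and 27 in active pain replicate 4.

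For Timp2, Mmp2 and Timp3, the 3 genes with the highest levels per length in male controls, the male groups overlapped. Mmp2 was at 43.5 to 61.1 CPM in controls, 44.4 to 59.9 CPM with sedentary pain and 46.8 to 78 CPM with active pain. Timp2 was at 105 to 140, 93.4 to 118 and 110 to 132 CPM in the same order. Timp3 was at 123, 120, 137 and 114 CPM in controls, 62.6, 136, 105 and 107 CPM with sedentary pain and 103, 79.8, 127 and 103 CPM with active pain. The lowest Timp3 values were those of the libraries highest in Timp1, sedentary pain replicate 1 and active pain replicate 2, and the groups overlapped (log2 difference -0.25 ± 0.21 in both comparisons with controls, adjusted p = 0.648 and 0.634 in edgeR).

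Whether the changes differed between the sexes was tested as an interaction over all 24 libraries. No gene of the 10 passed the threshold for sedentary pain against control, active pain against control or active against sedentary pain, and neither did any of all genes tested (0% in each). Unadjusted p-values under 0.05 were found for 1, 0 and 1 of the 10 in that order, both of them Mmp14, and DESeq2 called 0. Over all genes the unadjusted counts were 1446, 307 and 2224, and DESeq2 called 21, 3 and 108. The change of Mmp14 in sedentary pain was larger in females by 1.88 ± 0.81 on the log2 scale (adjusted p = 0.479 in edgeR), and its difference between active and sedentary pain was more negative in females (-2.23 ± 0.81, adjusted p = 0.246). This last value depends on single libraries. Without male sedentary pain replicate 1 it was -3.07 ± 0.75 (adjusted p = 0.0228 in edgeR), and the difference for Timp1 was then -5.86 ± 1.55 (adjusted p = 0.025), with 2174 of 15369 genes called. Without female sedentary pain replicate 1 that for Mmp14 was -2.59 ± 0.69 (adjusted p = 0.0424), with 622 of 15404 genes called.

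Between male and female controls no gene of the 10 passed the threshold in edgeR (2.83% of all genes tested did). An unadjusted p under 0.05 was found for 2 of the 10, and for 2245 of 15103 genes tested. DESeq2 called 0 of the 10, and 741 of 27756 genes. The CPM of the 2 control groups did not overlap for Timp3, higher in males (log2 difference 0.51 ± 0.21, adjusted p = 0.249 in edgeR), and Timp1, lower in males (-1.47 ± 1.81, adjusted p = 0.697). Groups that did not overlap were found for 22.3% of all genes tested. Mmp3 of male controls was at 0.136, 0.28 and 0.157 CPM in 3 of 4 libraries, and at 1.05 CPM or more in all female controls (log2 difference -2.59 ± 1.04, adjusted p = 0.236).

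Set side by side in single libraries, the 10 genes had different layouts. Mmp3, Mmp8, Mmp19 and Adam8 had their highest female sedentary pain value in replicate 2, and their highest male pain values in sedentary pain replicate 1 and active pain replicate 2. These libraries had the highest neutrophil marker sums of their groups. The 2 male libraries also had the highest macrophage marker sums of theirs (796 and 476 CPM), so the 2 summed lists peaked in different libraries in female sedentary pain but not in males. The macrophage marker Adgre1 taken alone was highest in replicate 4 of both male pain groups, at 24.1 CPM against 12.4 CPM in sedentary pain replicate 1 and at 20 CPM against 9.36 CPM in active pain replicate 2. Relative to the mean of the same-sex controls, with 0.1 CPM added to both, Adam8 was 5.59 log2 units higher in female sedentary pain replicate 2, and 2.4, 3.46 and 4.06 units higher in replicates 1, 3 and 4. Mmp14 differed from that layout in female sedentary pain. Its log2 ratio was -0.08 in sedentary pain replicate 1, 1.59 in replicate 2, 2.76 in replicate 3 and 3.7 in replicate 4, and the summed macrophage markers were at 1.74, 2.49, 4.76 and 5.19 in the same order. Timp1 was at 4.38, 6.51, 5.08 and 6.95 in replicates 1 to 4, highest in replicates 2 and 4. In active pain females replicate 3, with the highest neutrophil and macrophage sums of the group (114 and 445 CPM), had the highest Mmp3, Mmp12, Mmp14, Mmp19, Timp1 and Adam8. Replicate 2, the other library rich in neutrophil markers, had the highest Mmp8, but the lowest Mmp19 of its group (log2 ratio -0.89). Its Adam8 (1.12) and Mmp3 (0.75) lay within the range of replicates 1 and 4.

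**Figure D4:**
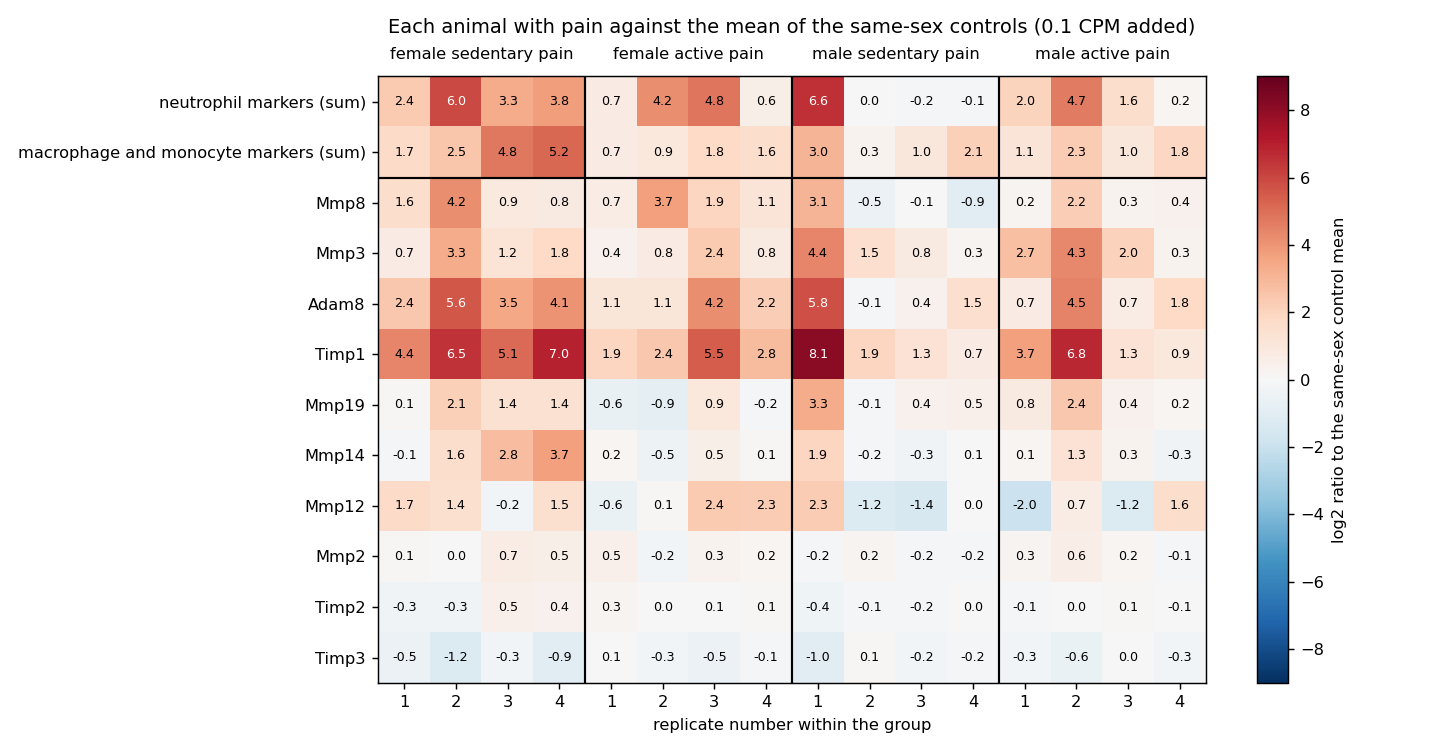
Log2 ratio of each pain library to the mean of the same-sex controls (0.1 CPM added) for the summed neutrophil and macrophage markers (top rows) and the 10 genes (rows below), with columns for the 16 pain libraries by group and replicate. Mmp8, Mmp3, Adam8 and Mmp19 are reddest in the columns with the reddest neutrophil row in female and male sedentary pain, Mmp14 in the columns with the reddest macrophage row, and Mmp2 and Timp2 are pale throughout. The word animal in the figure's heading stands for a sample.

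Markers of other cell types were read in the same comparison, where 19.6% of all genes tested rose and 13.9% fell. In female sedentary pain against control, 10 of 10 macrophage and monocyte markers rose, and so did 5 of 7 tested neutrophil markers. Of the fibroblast and progenitor markers 3 of 10 rose and 1 fell, of satellite cell markers 2 of 6 rose and of tendon and cartilage markers 2 of 7 tested rose, Acan being at 0 in every library. Counted in either direction, these 3 lists are near the 33.5% of all genes tested that changed. By library, however, the summed tendon and cartilage markers were highest in female sedentary pain replicate 2 (135 CPM), female active pain replicate 3 (150 CPM), male sedentary pain replicate 1 (147 CPM) and male active pain replicate 2 (137 CPM), against at most 75.4 CPM in the controls. These were the libraries with the highest neutrophil sums of their groups, and their part in the levels of Mmp3, Mmp19, Timp1 and Adam8 was not tested. The summed satellite cell markers were 117 CPM in male sedentary pain replicate 1 and 58.7 to 61 CPM in the other libraries of that group, with Myod1 at 73.2 CPM against 21.6 to 23.7 CPM but Pax7 lowest in replicate 1, at 0.928 CPM against 2.28 to 2.58 CPM. Endothelial and mural markers fell in 3 of 8, adipocyte markers in 5 of 6 and myofibre markers in 1 of 10. The summed adipocyte markers of female controls were 210, 161, 2922.4 and 1262.1 CPM, so that control replicates 3 and 4, which also had the highest control values of Mmp3 and Mmp19, held most of that signal.

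The balance among the 3 inhibitors described here shifted with Timp1. Timp4, with a mean of 24.1 CPM in female controls and 11.7 CPM in female sedentary pain, is not part of the sums below. Of the summed CPM per kb of Timp1, Timp2 and Timp3, Timp1 made up 1.58 to 4% in female controls and 0.545 to 0.931% in male controls. In female sedentary pain it made up 42.1, 78, 43 and 75.9%, and in female active pain 8.2, 13.5, 56 and 15.5%. The share exceeded the control range in all 8 female pain libraries and was highest in sedentary pain replicates 2 and 4. In male sedentary pain it was 79.1, 3.25, 2.33 and 1.4%, and in male active pain 12.1, 53.1, 1.9 and 1.65%, above the control range in each of the 8 libraries. The summed level was 35.5 to 43.5 CPM per kb in female controls and 50, 119, 80.1 and 165 in female sedentary pain. Shares of RNA are no measure of inhibitor protein.

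**Figure D5:**
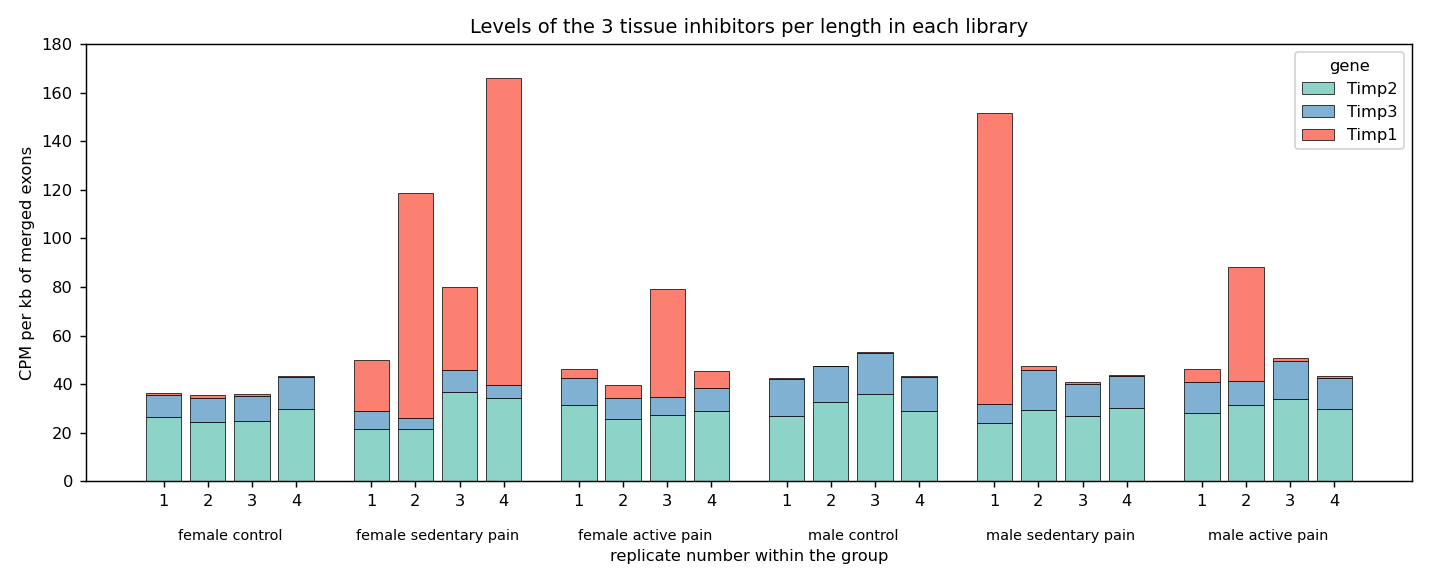
Stacked levels of Timp2, Timp3 and Timp1 in CPM per kb of merged exons in each of the 24 libraries, by group and replicate. The Timp1 part is thin in the controls, 42.1 to 78% of the bar in female sedentary pain and 79.1% in male sedentary pain replicate 1.

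The genes whose profiles over the 24 libraries were closest to each member were found from the root mean square difference of standardised log2 CPM, among 11142 candidate genes. These profiles share libraries, depth and cell content, and the differences are given as a description. Timp1 was closest to Lgmn, a lysosomal protease (0.22 SD), and Mt2, a metallothionein (0.23 SD). Mmp14 was closest to Atp1b3 (0.21 SD) and Gnb1 (0.23 SD), and Adam8 to the lipopolysaccharide co-receptor Cd14 (0.27 SD) and the granulocyte colony-stimulating factor receptor Csf3r (0.29 SD). Mmp19 was closest to S100a11 (0.28 SD) and Sod3 (0.29 SD), and Mmp8 to the neutrophil protein S100a9 (0.41 SD), its next neighbour Flot1 being at 0.62 SD. Mmp3 was closest to Ly6c1 (0.4 SD) and Gm28875 (0.41 SD), and Timp3 to Fbxl4 (0.32 SD) and Cachd1 (0.36 SD). Mmp2 was closest to the progenitor marker Cd34 (0.52 SD) and Olfml2b (0.57 SD), Timp2 to Scara3 (0.61 SD) and Efemp1 (0.66 SD), and Mmp12 to Cxcr4 (0.8 SD) and Apln (0.85 SD). Among the 10 genes themselves the closest pair was Timp1 and Adam8 (0.39 SD), followed by Mmp19 and Adam8 (0.47 SD) and Mmp3 and Timp1 (0.51 SD).

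Other genes of the system were read from lists in the same female comparison of sedentary pain with control. Of 17 further matrix metalloproteinases and Timp4, 8 of the 18 were tested, 2 rose and 3 fell (33.5% of all genes tested changed), Mmp1a, Mmp1b and Mmp20 having 0 counts in every library. The gelatinase Mmp9 rose (log2 change 1.65 ± 0.56, adjusted p = 0.0407 in edgeR), from 1.72 to 4.55 CPM in the controls to 4.8 to 26 CPM. Mmp28 fell by 1.66 on the log2 scale (SE 0.47, adjusted p = 0.0224) and Timp4, the inhibitor typical of heart and muscle, fell by 1.06 (SE 0.37, adjusted p = 0.0458). Mmp25, a membrane-anchored enzyme of neutrophils, rose and Mmp15 fell, both named after their values were seen. Mmp9 of active pain females was at 3.19 to 8.28 CPM, a log2 difference from sedentary pain of -0.99 ± 0.55 (adjusted p = 0.224). The median log2 change of the tested genes was -0.58 in sedentary pain against control, against -0.02 over all genes.

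Of 20 ADAM and ADAMTS proteases, all tested, 5 rose in female sedentary pain and 0 fell, against 19.6% higher and 13.9% lower over all genes tested. Adam15 was at 20.5 to 35.2 CPM in controls and 36.9 to 111 CPM with sedentary pain (log2 change 1.39 ± 0.29, adjusted p = 0.00606 in edgeR). The tumour necrosis factor sheddase Adam17 (0.94 ± 0.33, adjusted p = 0.0442) and Adam19 (0.9 ± 0.32, adjusted p = 0.0492) also rose. In active against sedentary pain females 4 of the 20 fell (9.41% of all genes tested did), Adam15 by 1.14 and Adam19 by 1.19 on the log2 scale (adjusted p = 0.033 and 0.0381).

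Among 15 activators and other inhibitors 12 were tested, 4 rose and 2 fell in female sedentary pain, where 33.5% of all genes tested changed. Plaur, the urokinase receptor at the head of the plasmin cascade that activates proMMPs, was at 0.547 to 0.82 CPM in controls and 3.02 to 39.4 CPM with sedentary pain (4.64 ± 0.9, adjusted p = 0.00469 in edgeR). The proteoglycan Spock2 fell by 1.16 (SE 0.19, adjusted p = 0.00285) and was higher in active than in sedentary pain (0.78 ± 0.19, adjusted p = 0.0328).

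Of 20 matrix substrates 19 were tested, 6 rose and 1 fell, a share near the 33.5% of all genes tested that changed. Versican (Vcan) was at 3.3 to 4.84 CPM in controls and 11.7 to 18.3 CPM with sedentary pain (1.92 ± 0.32, adjusted p = 0.00303 in edgeR). Biglycan (Bgn) rose by 1.55 ± 0.33 (adjusted p = 0.00641) and fibronectin (Fn1) by 1.01 ± 0.19 (adjusted p = 0.00458). None of these lists had a gene past the threshold in female active pain against control or in the male comparisons in edgeR, where 0% of all genes passed.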

How the data were processed

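Per the labels' protocols, RNA was extracted with a kit for fibrous tissue and made into stranded TruSeq libraries read as 100-base pairs. The deposited values are whole-number read counts per gene, 1 table per sample, as the authors left them. The submitters' processing notes name HISAT2 2.1.0, featureCounts, Salmon 0.9.1, DESeq2 1.24.0, mm10 and GRCm38.p6, without saying which made the counts; the strand setting is not given in the sources used here.

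Counts were tested with edgeR 4.0.16 (quasi-likelihood F test, two-sided, robust, TMM scaling, filterByExpr with minimum count 10) in R 4.3.3, over all genes, with Benjamini-Hochberg adjusted p under 0.05. Each sex was fitted with its 12 samples and sex differences with all 24. The SE given with edgeR values was derived as the absolute log2 change divided by the square root of the F statistic. The functions were run on simulated counts with the same dispersion for every gene and no outlying library. That setting differs from these data. CPM used TMM factors. Alternatives were RLE scaling, DESeq2 1.42.0, no filter, the replicate number or the library-number range as a term, 1 surrogate variable (sva 3.50.0), only the groups compared, all samples together, and each library left out. Samples were grouped by their labels. Symbols and positions matched for 54409 of 54532 genes (GENCODE M21). Replicate numbers were not treated as pairs in the main fits. Of 24 same-number pairs, 9 had deviations correlated above 0.1, with a mean of 0.0548. Pairs of different numbers were not compared, so these values cannot show whether replicate numbers pair samples.

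The genes, the lists of other proteases, inhibitors, substrates and cell markers and the tests were chosen with earlier results of these data known. The genes named are the 10; per list, up to 3 with the smallest adjusted p in female sedentary pain against control and a mean log2 CPM not under 1; and the 2 closest profiles per gene. Mmp15 and Mmp25 were named outside this rule, after their values were seen. A gene that this rule names is not reported here.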

Additional observations from a re-analysis of the deposited data

Results flagged for a closer look

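In each of the 60 combinations of gene and group, the distance of the highest or lowest sample to its nearest neighbour was set against the range of the 4 samples. In 17 of them 1 sample stood apart. Chance gives about 1 in 20 (3 of 60) for independent, normally distributed values, which CPM of genes that share libraries are not, so the count of 17 is given as a description. Of these, 7 were male sedentary pain replicate 1, with 12.7 CPM of Mmp3, 1.53 of Mmp8, 1.78 of Mmp12, 54.2 of Mmp14, 21.3 of Mmp19, 107 of Timp1 and 37.9 of Adam8. Male active pain replicate 2 stood apart with 0.8 CPM of Mmp8, 11.2 of Mmp19, 41.5 of Timp1 and 14.6 of Adam8, and female active pain replicate 3 with 16.6 CPM of Mmp3, 39.3 of Timp1 and 15.2 of Adam8. The other cases were Mmp8 in female sedentary pain replicate 2 (2.68 CPM), Mmp3 in male control replicate 3 (1.53 CPM) and Mmp2 in male sedentary pain replicate 2 (59.9 CPM). Every one of these was the highest sample of its group, and those of a library are not independent of each other.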

How the results depend on the processing

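Against the 5 genes called in female sedentary pain against control, DESeq2 called 7 (Mmp8 and Mmp19 added), fitting only the groups compared left 3, and leaving out 1 library gave 3 to 7. For female active pain against control DESeq2 called 2 instead of 0. For female active against sedentary pain, where 1 gene was called, DESeq2 called 2, the library-number range as a term 3, no filter 0, only the groups compared 0, and leaving out 1 library gave 0 to 3. For the sex difference of active against sedentary pain, leaving out 1 library gave 0 to 2 instead of 0. With the replicate block, 6 genes were called in female sedentary pain against control (Mmp19 added, adjusted p = 0.0348 in edgeR), 1 in active against sedentary pain and 0 elsewhere. Over all genes, sedentary pain against control in females gave 4867 calls of 14511 tested, and 6109 of 26069 with DESeq2. It gave 3739 with the replicate block, 2847 with only the groups compared and 2486 to 6674 with 1 library left out. The replicate block gave 1629 in female active against sedentary pain. Active against sedentary pain gave 1730 calls, 3154 with DESeq2, 2745 with the library-number range as a term, 174 without a filter, 0 with only the groups compared and 0 to 4316 with 1 library left out. Male against female controls gave 427 calls, 804 with the surrogate variable, 741 with DESeq2 and 198 to 622 with 1 library left out. In males, where edgeR called 0 genes, the surrogate variable called 5 in sedentary and 7 in active pain against control. The sex differences, with 0 calls, reached 18 (sedentary pain against control), 1 (active pain against control) and 2174 (active against sedentary pain) with 1 library left out. The cause of these shifts was not tested.

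Changes of sign occurred in values that did not pass the threshold. With 1 surrogate variable the log2 changes in male sedentary pain against control were -0.63 for Mmp12, -0.34 for Mmp14, -0.11 for Mmp19 and 0.0 for Timp3; in male active pain -0.27, -0.3, -0.06 and 0.01 for the same genes and 0.04 for Timp2; and in male active against sedentary pain 0.37 for Mmp12, 0.04 for Mmp14, 0.04 for Mmp19, 0.7 for Timp1, 0.01 for Timp3 and 0.29 for Adam8. In female active against sedentary pain it gave 0.84 for Mmp8 and -0.02 for Timp2, the library-number range gave 0.05 for Mmp8, and all samples together -0.01 for Timp2. Mmp19 in female active pain against control was 0.07 with the replicate block or the library-number range. In male active against sedentary pain the replicate block gave 0.37 for Mmp12 and 0.01 for Timp3, only the groups compared 0.0 and all samples together 0.01 for Timp3.

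Leaving out 1 library gave these ranges of log2 change across 0. In male active against sedentary pain they were -2.9 to 2.17 for Adam8, -3.69 to 3.66 for Timp1, -1.46 to 1.56 for Mmp12, -0.64 to 0.6 for Mmp14, -1.32 to 1.01 for Mmp19, -0.77 to 2.14 for Mmp3 and -0.18 to 0.17 for Timp3. In male sedentary pain against control they were -1.04 to 1.59 for Mmp12, -0.12 to 0.96 for Mmp14 and -0.16 to 0.03 for Mmp2, and in male active pain -0.53 to 1.19 for Mmp12 and -0.05 to 0.07 for Timp2. In female active against sedentary pain they were -0.05 to 0.75 for Mmp12, -1.43 to 1.5 for Mmp8 and -0.13 to 0.13 for Timp2. In female active pain against control they were -0.07 to 0.28 for Mmp14 and -0.57 to 0.48 for Mmp19, and in sedentary pain -0.02 to 0.23 for Timp2. Depth limits Mmp8 and Mmp12 most, with at most 54 counts in a library.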
